A study of Homo sapiens with 12 samples.

Results

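The genes described here are 48 genes of mitotic entry, the spindle and the chromosomes, read in HEK293T, a widely used line of human embryonic kidney origin that makes simian virus 40 large T antigen, a viral protein that binds p53 and the retinoblastoma proteins. They were taken by symbol from the 60604 gene identifiers of the deposited count table, and all 48 passed the filter on low counts with 19662 genes in all. By role they comprise 10 kinases, cyclins, phosphatases and a transcription factor of mitotic entry, 6 genes of the spindle checkpoint, 2 of anaphase, 7 of the inner centromere and chromosomal passenger complex, 6 of the centromere and kinetochore, 7 of the spindle, 4 of cytokinesis and 6 of chromosome structure.

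The study asked how transcripts change when dCas9-VP160, a catalytically dead Cas9 joined to a VP160 activation domain, is directed to the CD34 promoter by guide RNAs. Cells were given dCas9-VP160 with 6 CD34 guide RNAs, dCas9-VP160 without guides, or no plasmid, and RNA was taken 48 h after transfection. Each group had 4 libraries, from 2 technical replicates in each of 2 experiments, and the experiments used separate batches of cells. All groups share the same parent line, and the transfected groups received 5.4 pmol of plasmid in all. The sources used here do not say how much of it was dCas9-VP160 plasmid. The labels describe the cells without plasmid in one place as non-transfected and in another as given the reagent without DNA. No group carried a plasmid without dCas9-VP160, so effects of plasmid and of protein cannot be told apart. The share of cells that took up plasmid was not analysed here.

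Libraries held 6750035 to 11932244 gene counts and 26115 to 28418 detected genes. CD34 itself was read at 664 to 942 counts in the 4 libraries with guides, 7 to 10 counts with dCas9-VP160 and 13 to 28 counts without plasmid, highest where the labels name the guides. The epithelial keratin KRT8 had at least 5730 counts in every library, whereas the leukocyte gene PTPRC and the T cell gene CD3E had at most 1 count and the endothelial gene VWF had 10 to 36. Of the fibroblast markers DCN had at most 1 count and COL1A1 had 152 to 345. The renal factors PAX2 and PAX8 were read at no more than 12 and 20 counts. Mitochondrially encoded genes took 5.57% to 7.5% of counts with guides, 5.14% to 5.63% with dCas9-VP160 and 8.31% to 8.78% without plasmid. Spike-in sequences took 0.719% and 0.404% in the 2 libraries of experiment 1 without plasmid and at most 0.00818% elsewhere.

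Entry into mitosis is driven by cyclin-dependent kinase 1 with its B-type cyclins, switched on by CDC25 phosphatases and reinforced by Polo and Aurora kinases. The spindle checkpoint holds back the anaphase-promoting complex until kinetochores are attached, after which securin and cyclin B are destroyed, sister chromatids part and the cell divides. Most of these genes are transcribed late in the cell cycle, through promoters that carry CCAAT boxes and the cell cycle homology region (CHR), bound by NF-Y and by the DREAM and MuvB complexes. In a culture of mixed cell cycle stages, such as this one, fewer mitotic cells and less RNA per cell cannot be told apart.

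The 48 genes together took 0.696% to 0.764% of gene counts in the libraries with guides, 0.694% to 0.779% with dCas9-VP160 and 0.767% to 0.839% without plasmid. Within an experiment, each transfected library had a lower share than either library without plasmid. Mean levels, in TMM-normalised CPM (a count relative to the scaled library size), ranged over the 48 genes from 7.18 to 687 with guides, from 8.18 to 653 with dCas9-VP160 and from 15.7 to 861 without plasmid. Per kilobase of exon, the highest levels without plasmid were those of UBE2C (144 CPM per kb) and TOP2A (134), followed by CCNB1 (99.2), CDC20 (94.3) and CDK1 (91.3). The lowest were SGO2 (4.72) and INCENP (3.51). With dCas9-VP160 UBE2C, TOP2A and CDC20 lay close together at 101, 102 and 100.0 CPM per kb, and with guides NUSAP1 (108) and TOP2A (107) led the order.

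Comparing dCas9-VP160 with no plasmid, most mitotic genes fell modestly and a smaller set rose. Of the 48 genes, 27 were lower and 9 higher at an adjusted p under 0.05, and 12 were not called (edgeR quasi-likelihood test, Benjamini-Hochberg over 19662 genes). Across all tested genes 24.6% were called lower and 26.6% higher. The median log2 fold change was -0.22 over the 48 genes and -0.00196 over all tested genes. INCENP had the largest change, with a log2 fold change of -0.94, and NUSAP1 and NCAPG the largest among the genes that rose, at 0.30 each. In 22 genes all 4 dCas9-VP160 libraries lay below all 4 libraries without plasmid, against 17.7% of all tested genes, and in 4 genes they lay above, against 19.4%. The share of mitochondrial counts differed between these groups too; with those genes removed before scaling, the median of the 48 was -0.23. Without the term for the experiment, 19 genes were lower and 2 higher.

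**Figure D1:**
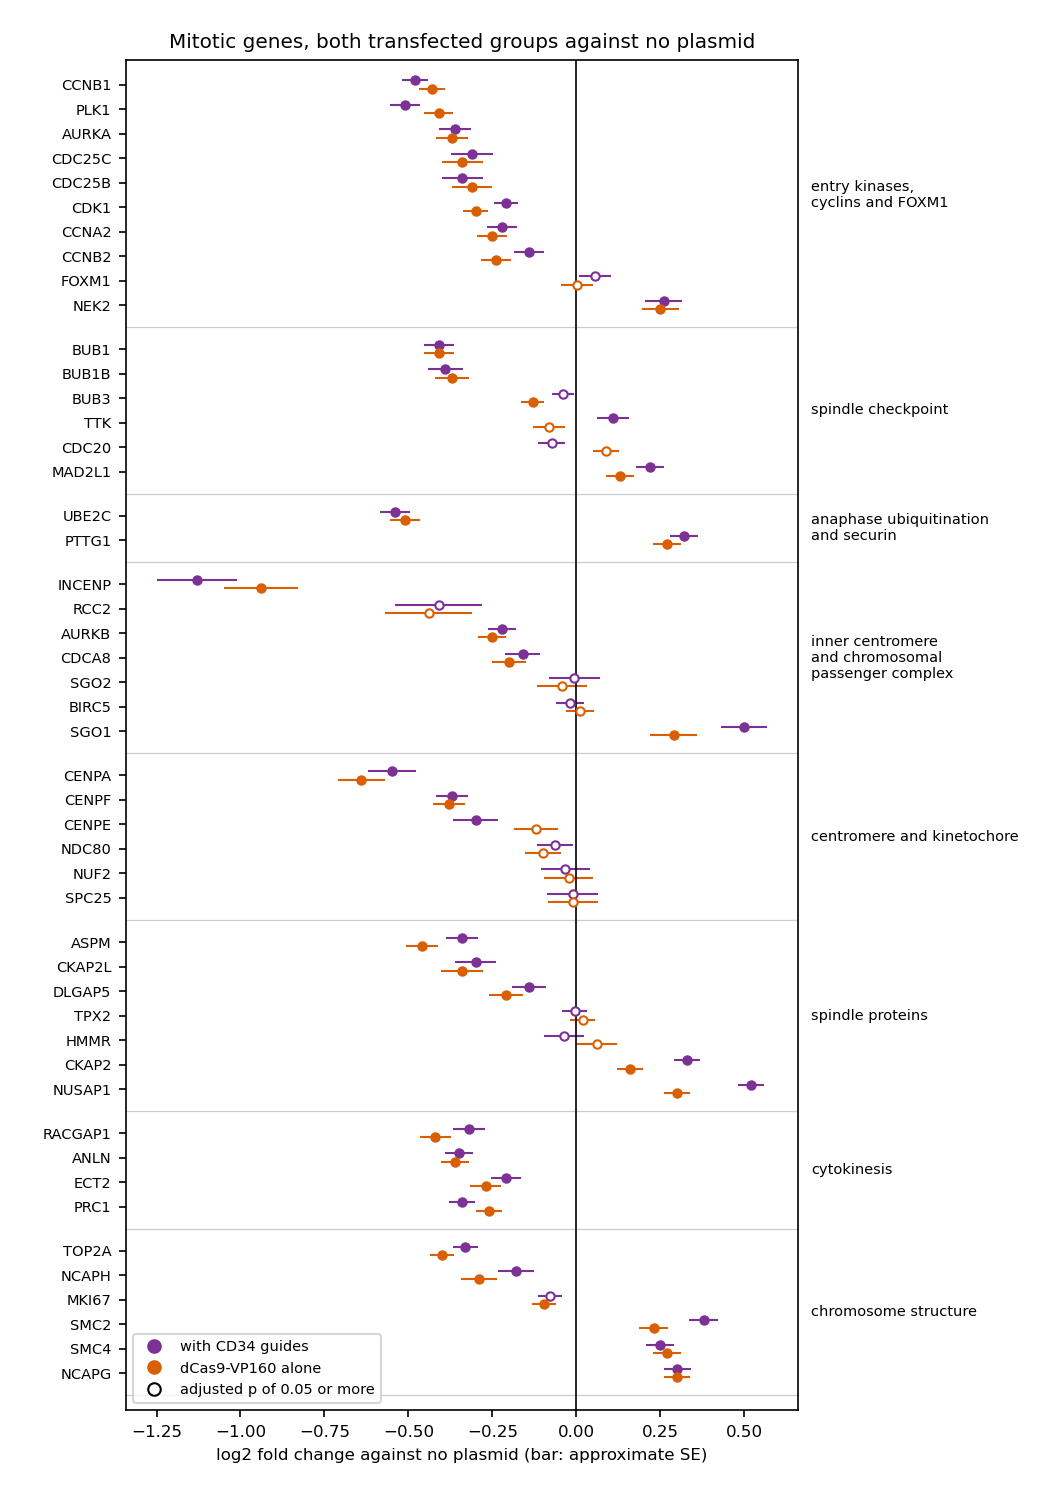
Log2 fold change against no plasmid (x axis) of the 48 mitotic genes, by role, for dCas9-VP160 with CD34 guides (purple, upper point) and dCas9-VP160 without guides (orange, lower point). Bars are approximate SEs and open points had an adjusted p of 0.05 or more; all 4 cytokinesis genes lie left of 0, while 3 of the 6 chromosome structure genes lie right of it.

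Promoter sequence was looked at as a description of the members, using RefSeq windows on GRCh38.p14 that run from 250 bases before to 50 after the gene start. Of the 48 genes, 40 matched, and AURKA, BIRC5, BUB3, FOXM1, RACGAP1, TPX2, TTK and UBE2C were not in the table. The CHR letters TTTGAA stood on either strand in 27 of 40 (67.5%), against 18.2% of 27305 genes with a window, and CCAAT in 30 of 40 (75%), against 39.7%. E2F-type letters, TTGGCGC or TTCCCGC, stood in 8 of 40 (20%), against 11%. Both CHR and CCAAT shared a window in 15 of the 23 matched genes that fell (65.2%), 2 of the 9 that rose (22.2%) and 3 of the 8 not called (37.5%), against 7.26% of all genes. Over all 40 matched genes the share was 50%. For the 9 genes with more than 1 window any window counted, and adjoining CHR and CCAAT letters that share bases counted for both. A match is a description and not a site, and these shares were not tested. The 150 bases before the RefSeq start are printed for 4 genes that fell and 3 that rose. The genes were chosen after their values were seen, to show both layouts, and do not stand for their groups. All 4 printed genes that fell hold both motifs. However, CCNB1, BUB1 and CCNA2 fell with CCAAT but no CHR, and BUB1B and ANLN with CHR but no CCAAT. Capitals mark CHR and CCAAT letters on either strand (TTCAAA and ATTGG on the opposite strand).
PLK1, fell, chr16:23678739-23678888, plus strand: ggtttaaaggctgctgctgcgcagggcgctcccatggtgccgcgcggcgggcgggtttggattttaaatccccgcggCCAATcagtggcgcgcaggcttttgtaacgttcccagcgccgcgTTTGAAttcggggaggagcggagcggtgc
CCNB2, fell, chr15:59104996-59105145, plus strand: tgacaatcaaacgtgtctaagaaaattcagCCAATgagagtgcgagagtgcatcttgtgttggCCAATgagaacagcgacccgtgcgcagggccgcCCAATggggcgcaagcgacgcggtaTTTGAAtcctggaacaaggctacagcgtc
INCENP, fell, chr11:62123861-62124010, plus strand: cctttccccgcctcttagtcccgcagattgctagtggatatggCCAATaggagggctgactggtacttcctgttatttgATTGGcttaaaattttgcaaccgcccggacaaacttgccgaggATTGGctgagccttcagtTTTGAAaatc
CENPA, fell, chr2:26785906-26786055, plus strand: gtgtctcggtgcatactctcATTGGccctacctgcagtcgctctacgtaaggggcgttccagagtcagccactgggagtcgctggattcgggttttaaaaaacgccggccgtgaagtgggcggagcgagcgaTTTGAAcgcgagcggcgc
NUSAP1, rose, chr15:41332731-41332880, plus strand: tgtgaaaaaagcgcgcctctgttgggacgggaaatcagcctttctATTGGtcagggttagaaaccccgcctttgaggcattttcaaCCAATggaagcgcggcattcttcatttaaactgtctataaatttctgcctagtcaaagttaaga
NCAPG, rose, chr4:17810829-17810978, plus strand: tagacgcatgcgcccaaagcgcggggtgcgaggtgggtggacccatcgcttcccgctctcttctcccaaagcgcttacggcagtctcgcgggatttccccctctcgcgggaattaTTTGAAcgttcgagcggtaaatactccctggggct
SGO1, rose, chr3:20186207-20186356, minus strand: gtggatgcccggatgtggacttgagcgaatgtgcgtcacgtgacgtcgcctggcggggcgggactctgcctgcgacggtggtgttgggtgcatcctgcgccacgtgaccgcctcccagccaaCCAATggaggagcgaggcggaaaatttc
In PLK1 a CCAAT box at -73 precedes a CHR at -29, and in CCNB2 3 boxes at -120, -87 and -54 precede a CHR also at -29, positions being counted from the start. INCENP has boxes at -107, -71 and -28 and a CHR at -10, and CENPA has a box at -130 and a CHR at -18. NUSAP1 has boxes at -105 and -64 and its CHR letters beyond the start, NCAPG has a CHR at -35 without a box, and SGO1 has a box at -28 without a CHR.

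Genes of mitotic entry fell almost together: 8 of 10 were lower with dCas9-VP160 than without plasmid, with a median log2 fold change of -0.30, NEK2 was higher and FOXM1 was not called. Values per library are given here and below as experiment 2 replicates 1 and 2, then experiment 1 replicates 1 and 2, and gene coordinates are those of GENCODE v29 on hg38. CCNB1 had 197, 192, 167 and 169 with guides, 204, 203, 170 and 180 with dCas9-VP160 and 258, 273, 240 and 244 without plasmid, in normalised CPM. These are the levels of cyclin B1 (ENSG00000134057, chr5:69167010-69178245), the main partner of CDK1, and neither transfected group overlapped the cells without plasmid (log2 fold change -0.43, SE 0.0393, adjusted p = 8.45e-10 for dCas9-VP160 against no plasmid). With guides PLK1 stood at 110, 107, 117 and 123, with dCas9-VP160 at 117, 120, 124 and 131, and without plasmid at 157, 156, 172 and 170 normalised CPM. For this Polo kinase (ENSG00000166851, chr16:23677656-23690367), which promotes entry and spindle assembly, every transfected library was again below every library without plasmid (-0.41, SE 0.0427, adjusted p = 8.74e-09). The values of CDK1 were 334, 339, 284 and 286 with guides, 293, 318, 278 and 267 with dCas9-VP160, and 393, 378, 338 and 331 without plasmid, in normalised CPM. In CDK1, the kinase at the centre of mitotic entry, all dCas9-VP160 libraries were below those without plasmid, while the guide libraries of experiment 2 overlapped them (-0.30, SE 0.036, adjusted p = 8.37e-08).

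Of the other entry genes, AURKA, a centrosomal kinase, changed by -0.37, the CDK1-activating phosphatases CDC25C and CDC25B by -0.34 and -0.31, cyclin A2 (CCNA2) by -0.25 and cyclin B2 (CCNB2) by -0.24 on the log2 scale, with adjusted p of 0.000116 or less in each. NEK2, a kinase that separates centrosomes, rose by 0.25 (SE 0.0550, adjusted p = 0.000507). FOXM1 had 125, 113, 140 and 140 with guides, 122, 119, 128 and 129 with dCas9-VP160 and 108, 116, 132 and 142 without plasmid, in normalised CPM. FOXM1, a transcription factor of late cell cycle genes, had overlapping groups throughout and differed by 0.000914 on the log2 scale (SE 0.0475, adjusted p = 0.99).

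**Figure D2:**
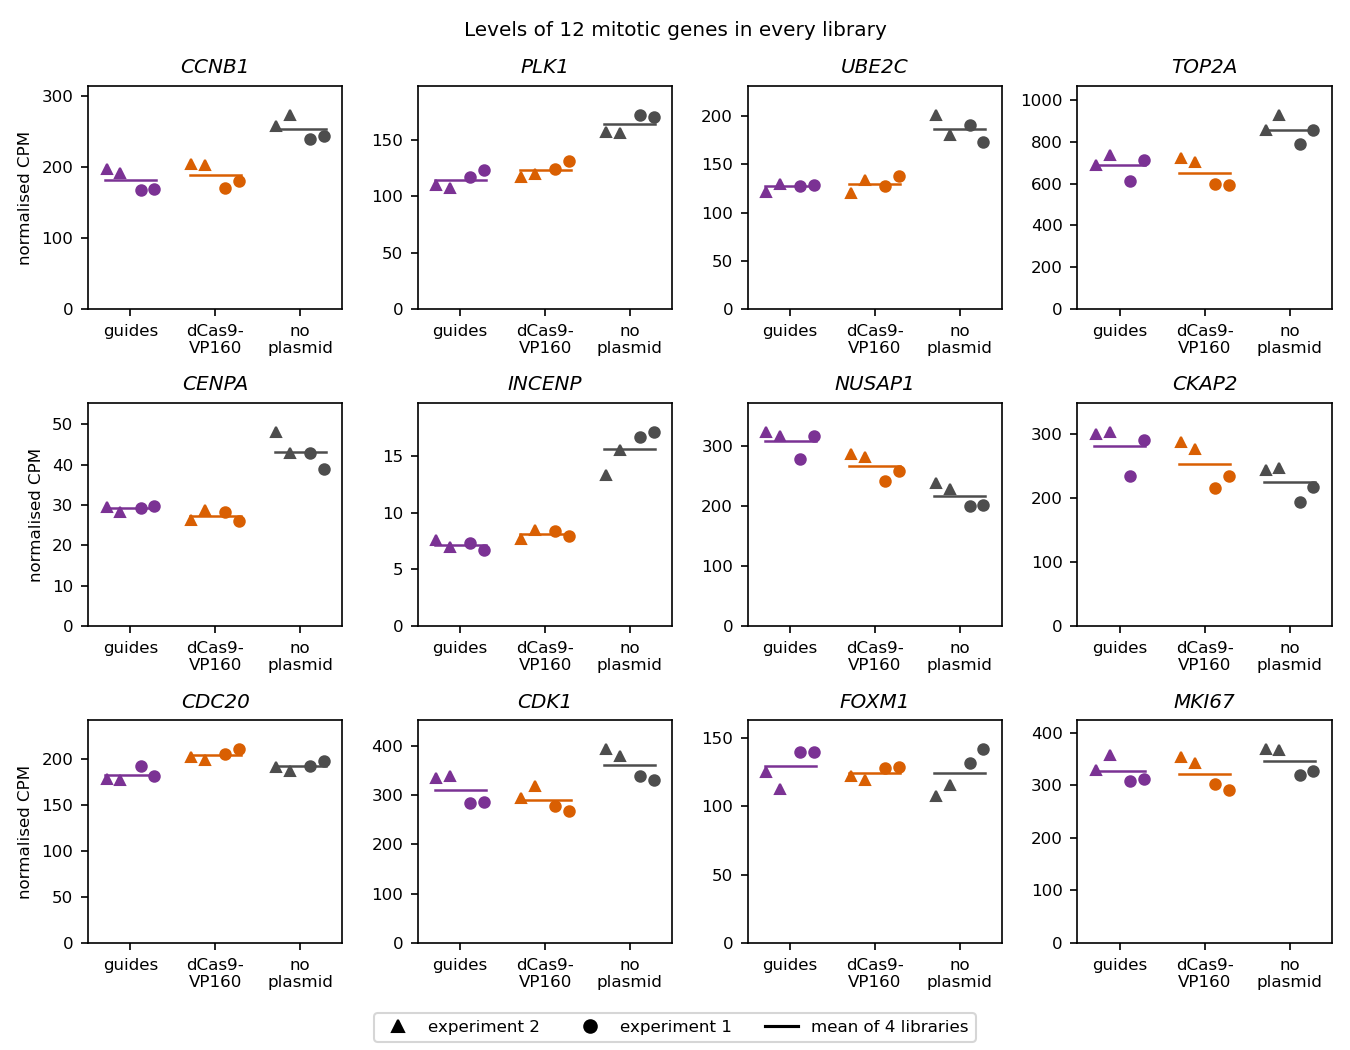
Normalised CPM (y axis, from 0) of 12 mitotic genes in all 12 libraries, for dCas9-VP160 with CD34 guides, dCas9-VP160 and no plasmid; triangles are experiment 2, circles experiment 1 and lines the mean of 4 libraries. CCNB1, PLK1, UBE2C, TOP2A, CENPA and INCENP separate transfected cells from cells without plasmid, NUSAP1 runs the other way, and FOXM1 and MKI67 overlap.

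Spindle checkpoint genes were divided, with 3 of 6 lower, 1 higher and a median of -0.11. Of all tested genes 24.6% were lower and 26.6% higher. With guides BUB1 stood at 126, 113, 106 and 125, with dCas9-VP160 at 119, 128, 110 and 114, and without plasmid at 153, 163, 151 and 158 normalised CPM. BUB1, a kinetochore kinase of the checkpoint, was lower in every transfected library than in any without plasmid (-0.41, SE 0.0445, adjusted p = 1.5e-08). Its partners BUB1B, a component of the mitotic checkpoint complex, and BUB3, which brings both to kinetochores, fell by 0.37 and 0.13. MAD2L1, the checkpoint protein that binds CDC20, rose by 0.13 (adjusted p = 0.0111), a call lost under 6 of 24 refits, DESeq2 among them. The values of TTK were 112, 118, 102 and 99.8 with guides, 105, 91.5, 97.5 and 80.3 with dCas9-VP160, and 100, 105, 90.8 and 101 without plasmid, in normalised CPM. TTK, the kinase that starts checkpoint signalling, overlapped between dCas9-VP160 and no plasmid (-0.0817, SE 0.0478, adjusted p = 0.159). CDC20 had 178, 177, 193 and 182 with guides, 202, 199, 206 and 211 with dCas9-VP160 and 191, 187, 193 and 198 without plasmid, in normalised CPM. CDC20 (ENSG00000117399), the activator of the anaphase-promoting complex that the checkpoint blocks, was slightly higher in all 4 dCas9-VP160 libraries than in any without plasmid, a log2 difference of 0.0874 that was not called (SE 0.0391, adjusted p = 0.064).

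The anaphase genes moved in opposite directions. With guides UBE2C stood at 121, 130, 128 and 129, with dCas9-VP160 at 120, 134, 127 and 138, and without plasmid at 201, 180, 191 and 173 normalised CPM. UBE2C (ENSG00000175063, chr20:45812576-45816957), the ubiquitin-conjugating enzyme of the anaphase-promoting complex, was lower in all transfected libraries without overlap (-0.51, SE 0.0435, adjusted p = 2e-10). PTTG1, the securin that holds separase inactive, rose by 0.27 (SE 0.0422, adjusted p = 7.39e-06). PTTG1 had 176 to 197 normalised CPM in dCas9-VP160 libraries and 141 to 176 without plasmid, so the groups touched.

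In the chromosomal passenger complex, which corrects wrong attachments, subunits differed. The values of INCENP were 7.61, 6.97, 7.36 and 6.67 with guides, 7.65, 8.49, 8.42 and 7.9 with dCas9-VP160, and 13.3, 15.5, 16.7 and 17.1 without plasmid, in normalised CPM. INCENP (ENSG00000149503, chr11:62123973-62153163), the scaffold of the complex, averaged 8.18 ± 0.06 CPM with dCas9-VP160 and 15.7 ± 1.66 CPM without plasmid (SD, n = 2 experiments), with no overlap of libraries. Its level fell by 47.7% (-0.94, SE 0.11, adjusted p = 8.67e-08 in edgeR). The kinase subunit AURKB fell by 0.25 and borealin (CDCA8) by 0.20, while survivin (BIRC5) had a log2 fold change of 0.0105 (adjusted p = 0.851). Of the shugoshins, which protect cohesin at the centromere, SGO1 rose by 0.29 (SE 0.0696, adjusted p = 0.000941) and SGO2 had -0.0437 (adjusted p = 0.653).

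RCC2, a regulator of chromosome condensation that associates with the inner centromere, was not called although its libraries did not overlap. RCC2 had 169, 166, 139 and 149 with guides, 168, 175, 145 and 113 with dCas9-VP160 and 194, 202, 212 and 215 without plasmid, in normalised CPM. The log2 fold change was -0.44 (SE 0.13, adjusted p = 0.0573), and it was -0.20 in experiment 2 and -0.69 in experiment 1. Among the 48 genes RCC2 alone had a response to dCas9-VP160 that differed between experiments, by 0.51 (interaction in an edgeR fit on 12 libraries, adjusted p = 0.0367), and 0.0116% of 17218 genes passed that test. Its spread is that of technical replicates.

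Among 6 centromere and kinetochore genes edgeR called 2 lower and 0 higher, against 24.6% and 26.6% of all tested genes. At an unadjusted p under 0.05 in edgeR and by DESeq2, 0 were higher as well. With guides CENPA stood at 29.6, 28.3, 29.2 and 29.8, with dCas9-VP160 at 26.3, 28.7, 28.2 and 26, and without plasmid at 48.1, 43, 42.8 and 38.9 normalised CPM. CENPA (ENSG00000115163, chr2:26764289-26801067), the histone H3 variant that marks centromeres, showed no overlap between transfected cells and cells without plasmid (-0.64, SE 0.0707, adjusted p = 2.34e-08). The values of CENPF were 122, 138, 99 and 126 with guides, 143, 134, 103 and 103 with dCas9-VP160, and 175, 176, 139 and 139 without plasmid, in normalised CPM. CENPF, a large protein of the outer kinetochore, was lower with dCas9-VP160 in the test (-0.38, SE 0.0479, adjusted p = 2.03e-07), while its highest dCas9-VP160 library exceeded the lowest libraries without plasmid. The kinetochore motor CENPE had -0.12, and the NDC80 complex subunits NDC80, NUF2 and SPC25, which bind microtubules, had -0.10, -0.0230 and -0.0102; none of these 4 was called.

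Spindle genes went both ways, with 3 of 7 lower and 2 higher, against 24.6% and 26.6% of all tested genes. The higher share lies near that of all tested genes. ASPM had 100, 104, 76.2 and 89.2 with guides, 92, 92.9, 80.2 and 71.1 with dCas9-VP160 and 137, 123, 101 and 108 without plasmid, in normalised CPM. ASPM, which acts at spindle poles, had every dCas9-VP160 library below those without plasmid (-0.46, SE 0.0469, adjusted p = 4.6e-09). With guides NUSAP1 stood at 323, 317, 278 and 316, with dCas9-VP160 at 287, 282, 241 and 259, and without plasmid at 238, 228, 200 and 202 normalised CPM. NUSAP1 (ENSG00000137804, chr15:41332694-41381050), a microtubule-bundling protein, had the reverse order, with dCas9-VP160 above no plasmid in all libraries (0.30, SE 0.0388, adjusted p = 2.76e-07). The values of CKAP2 were 300, 303, 234 and 291 with guides, 288, 276, 216 and 235 with dCas9-VP160, and 244, 247, 193 and 217 without plasmid, in normalised CPM. CKAP2, which stabilises spindle microtubules, rose by 0.16 (SE 0.0396, adjusted p = 0.00115), with overlapping libraries. Its relative CKAP2L fell by 0.34 and DLGAP5, a protein of kinetochore fibres, by 0.21. TPX2, the activator of Aurora A, and HMMR, a spindle pole protein, had 0.0190 and 0.0606 and were not called. By annotation, 62.2% of NUSAP1 exon bases also lie in another gene that the count table does not list.

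All 4 cytokinesis genes were lower, with a median of -0.32. RACGAP1 had 229, 228, 179 and 197 with guides, 209, 209, 195 and 159 with dCas9-VP160 and 264, 259, 253 and 265 without plasmid, in normalised CPM. RACGAP1, the centralspindlin subunit that recruits ECT2 to the midzone, did not overlap between transfected libraries and libraries without plasmid (-0.42, SE 0.0466, adjusted p = 2.42e-08). The contractile ring scaffold ANLN fell by 0.36, the guanine nucleotide exchange factor ECT2 by 0.27 and the midzone bundling protein PRC1 by 0.26. PRC1 shares 58.4% of its exon bases with other genes, among them PRC1-AS1 (-0.19, adjusted p = 0.0176), and the library kits do not mark the strand.

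Chromosome structure genes were split evenly, 3 lower and 3 higher of 6, against 24.6% and 26.6% of all tested genes. With guides TOP2A stood at 689, 739, 611 and 711, with dCas9-VP160 at 721, 702, 596 and 593, and without plasmid at 857, 928, 790 and 859 normalised CPM. TOP2A (ENSG00000131747, chr17:40388516-40417950), the topoisomerase that untangles sister DNA, was lower in every transfected library than in any library without plasmid (-0.40, SE 0.036, adjusted p = 4.93e-10). The values of MKI67 were 330, 358, 309 and 313 with guides, 353, 342, 303 and 292 with dCas9-VP160, and 369, 368, 320 and 327 without plasmid, in normalised CPM. MKI67, the coat protein of mitotic chromosomes and a common proliferation marker, had overlapping groups and a call at the edge of the threshold (-0.0966, SE 0.0361, adjusted p = 0.0271), which was lost under 10 of 24 refits. SMC2 had 283, 290, 228 and 280 with guides, 278, 277, 205 and 229 with dCas9-VP160 and 230, 232, 191 and 185 without plasmid, in normalised CPM. SMC2, the ATPase shared by both condensins, rose by 0.23 (SE 0.0433, adjusted p = 5.34e-05), and its partner SMC4 by 0.27. The condensin I subunits split, NCAPG rising by 0.30 and NCAPH falling by 0.29. NCAPG shares 33.1% of its exon bases with LCORL, which itself rose by 0.33 (adjusted p = 2.89e-05).

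**Figure D3:**
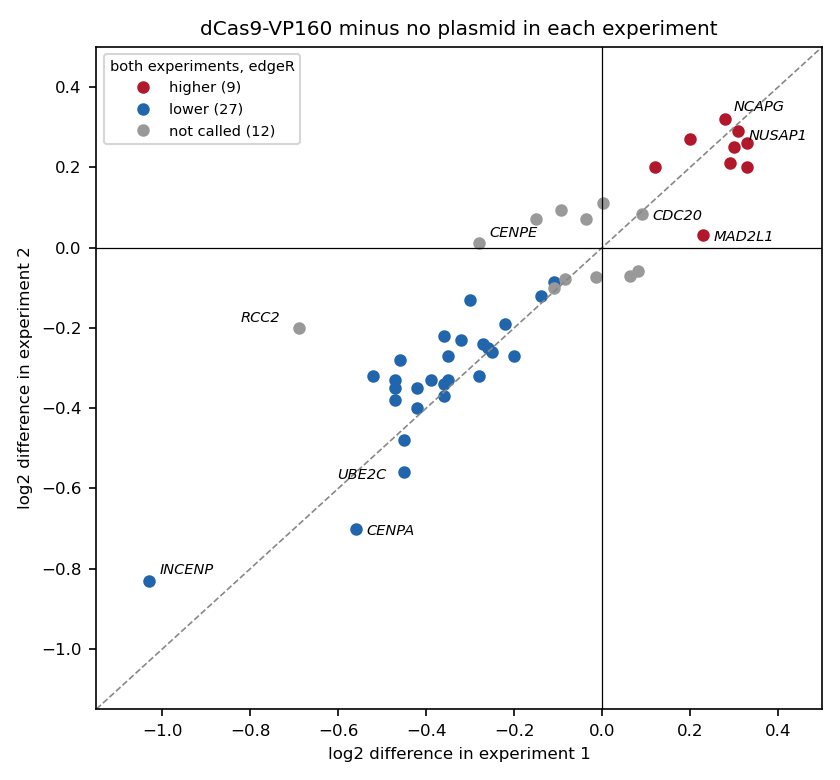
Log2 difference of dCas9-VP160 minus no plasmid for the 48 genes in experiment 1 (x axis) and experiment 2 (y axis); red and blue points were called higher and lower over both experiments, grey points were not called, and the dashed line marks equal values. Of the 48 points 42 have the same sign in both experiments, and RCC2 lies farthest from the line.

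Over all 48 genes 42 (87.5%) had the same sign in both experiments, against 81.5% of all tested genes. The calls rest on both experiments together, so their sign in each is no separate evidence. The 27 genes that fell had a median log2 difference of -0.32 in experiment 2 and -0.36 in experiment 1, and the 9 that rose had 0.25 and 0.29. INCENP had -0.83 and -1.03, CENPA -0.70 and -0.56 and CCNB1 -0.38 and -0.47 in experiments 2 and 1. Tested alone, experiment 2 called 25 genes lower and 8 higher, and experiment 1 called 28 and 8, with the spread of technical replicates.

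Related genes outside the 48 did not all follow. Of 12 mitotic kinesins, the motors of the spindle and midzone, 9 were lower with dCas9-VP160 than without plasmid and 0 higher by edgeR. At an unadjusted p under 0.05 in edgeR 0 were higher as well, and DESeq2 called 6 lower and 0 higher. The median was -0.23. KIFC1 (-0.66), KIF20A (-0.54) and KIF23 (-0.41), the partner of RACGAP1 in centralspindlin, fell most. Of 23 other spindle, centrosome and midbody genes 12 were lower and 2 higher, with a median of -0.20. Here the nuclear lamina gene LMNB1 (-0.65), the spindle pole organiser NUMA1 (-0.59) and ARHGAP11A (-0.48) fell most, and HAUS2 (0.49) and CEP55 (0.26), an abscission factor, rose.

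Other kinetochore and centromere genes did not lean lower, with 13 of 33 higher and 7 lower and a median of 0.0647. Their log2 fold change was positive in 18 and negative in 15. CENPU (0.83), MAD1L1 (0.47), which anchors MAD2L1 at kinetochores, and CENPQ (0.42) rose most, while CENPI (-0.65) and KNTC1 (-0.30) were among those that fell. Of 17 mitotic regulators 6 were higher and 4 lower. CDC25A, a phosphatase that also acts at the start of S phase, rose by 1.00, the CDK1-inhibiting kinase PKMYT1 by 0.52 and UBE2S, which extends ubiquitin chains for the anaphase-promoting complex, by 0.38; separase (ESPL1) fell by 0.43, the CDK1-inhibiting kinase WEE1 by 0.30 and GTSE1 by 0.21. Subunits of the anaphase-promoting complex were 3 higher and 4 lower of 14, among them ANAPC10 (0.49) and ANAPC2 (-0.40). Condensin and cohesin genes were 3 higher and 3 lower of 13, with sororin (CDCA5) at 0.50 and NCAPH2 of condensin II at 0.44, against PDS5B at -0.22 and NIPBL at -0.15. Of all tested genes 26.6% were higher and 24.6% lower. The shares of these last 2 lists lie near these, as do the lower shares of the kinetochore list and the mitotic regulators.

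Genes of replication licensing and S phase, which are transcribed earlier in the cycle, were mostly higher: 15 of 24 rose and 3 fell, with a median of 0.15. The licensing factors CDC6 (0.88) and ORC1 (0.78) and the helicase subunit GINS3 (0.56) rose most, and cyclin E1 (CCNE1, -0.22), UHRF1 (-0.18) and TYMS (-0.10) fell. Among the regulators that bind CHR and CCAAT promoters 6 of 14 were higher and 3 lower, against 26.6% and 24.6% of all tested genes. The lower share lies near that of all tested genes. LIN52 (0.75), the B-Myb gene MYBL2 (0.58) and LIN54 (0.48), the CHR-binding subunit of MuvB, rose most, and the CCAAT-binding subunit NFYA (-0.43), the pocket protein RBL2 (-0.39) and RBBP4 (-0.21) fell. Summed levels of 7 fibroblast markers were 30.9 to 38.7 CPM with guides, 29.2 to 40.2 with dCas9-VP160 and 40.0 to 43.4 without plasmid, with COL1A1 at 152 to 345 counts, PDGFRA at 13 to 77, LUM at 24 to 59 and PDGFRB at 10 to 28, and with COL1A2 at no more than 6, THY1 at no more than 2 and DCN at no more than 1. The part of these differences in the mitotic genes was not tested.

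**Figure D4:**
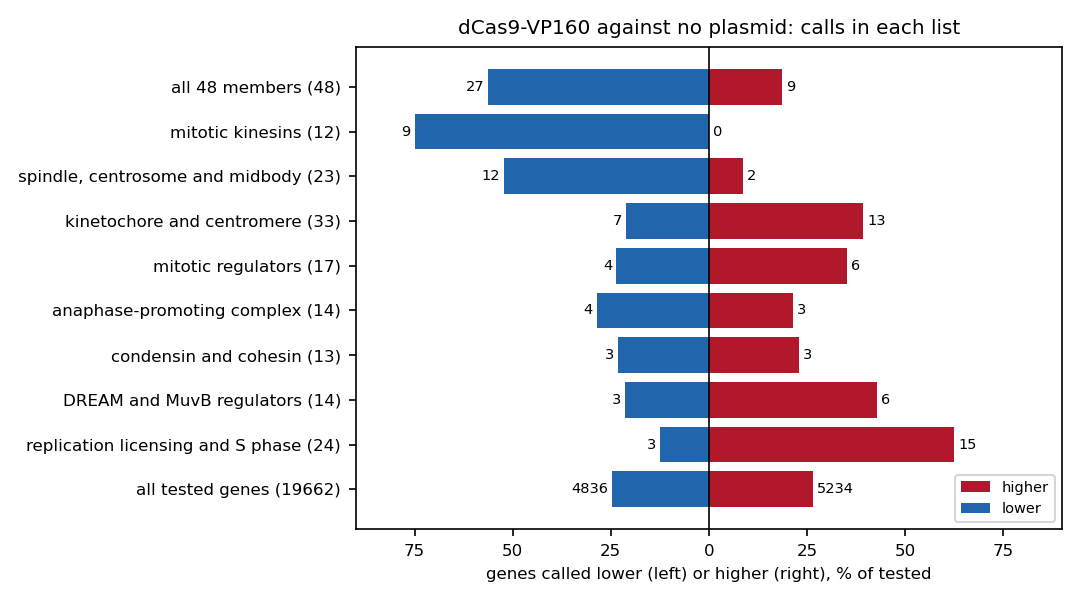
Share of tested genes (x axis, %) called lower (blue, left of 0) and higher (red, right of 0) with dCas9-VP160 against no plasmid, for the 48 mitotic genes, 8 related lists and all tested genes; list sizes stand in brackets and numbers of genes at the bars. The 48 genes, the kinesins and the spindle list lean lower, and the S phase list leans higher with 15 of 24.

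Adding the CD34 guides to dCas9-VP160 changed few of these genes. With guides 4 of 48 were higher and 1 lower than with dCas9-VP160 alone, and 43 were not called, where 4.16% of all tested genes were higher and 3.41% lower. The median log2 fold change was 0.0349 over the 48 and -0.00401 over all tested genes. NUSAP1 rose further, by 0.22 (SE 0.0383, adjusted p = 0.000612), and its highest dCas9-VP160 libraries overlapped the lowest library with guides. TTK rose by 0.20 (SE 0.0481, adjusted p = 0.0114), CKAP2 by 0.16 (SE 0.0395, adjusted p = 0.00993) and SMC2 by 0.15 (SE 0.0430, adjusted p = 0.0369), each with overlapping libraries. CDC20 fell by 0.16 (SE 0.0396, adjusted p = 0.0114), and its 4 libraries with guides, at 177 to 193 CPM, lay below the 199 to 211 CPM of dCas9-VP160.

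None of the 10 entry genes was called between these groups (0 by edgeR, 3 at an unadjusted p under 0.05, 0 by DESeq2). CCNB1 had -0.0587 (SE 0.0405), PLK1 -0.11 (SE 0.0446), CDK1 0.0941 (SE 0.0365) and FOXM1 0.0554 (SE 0.0479), and outside the entry genes TOP2A had 0.0759 (SE 0.0363). Libraries with guides lay above those with dCas9-VP160 in 2 genes, MAD2L1 (0.0933, adjusted p = 0.189) and NCAPH (0.11, adjusted p = 0.258), and below them in 2, CDC20 and INCENP (-0.20, SE 0.13, adjusted p = 0.44), where all tested genes gave 4.46% above and 4.04% below. The 5 calls were not firm. DESeq2 called 1 gene higher and 0 lower, experiment 2 alone 0 and 0, experiment 1 alone 2 and 0, and leaving out 1 library at a time gave 1 to 5 higher and 0 to 2 lower. The counts were 2 and 2 without replicate 2 of experiment 1 with guides, 2 higher without replicate 1 of experiment 1 or replicate 2 of experiment 2 with dCas9-VP160, and 1 and 0 without replicate 2 of experiment 2 among the cells with no plasmid.

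Of the 24 replication licensing and S phase genes, 8 were higher with guides than with dCas9-VP160 and 1 lower, with a median of 0.0994. Of all tested genes 4.16% were higher and 3.41% lower. CDC6 (0.30), the ribonucleotide reductase subunit RRM2 (0.29) and cyclin E2 (CCNE2, 0.29) rose most and CCNE1 fell by 0.23. DESeq2 called 4 of the 24 higher and 0 lower (edgeR gave 2 lower at an unadjusted p under 0.05). Over the other 7 lists together 10 of 126 genes were higher and 3 lower, among them the kinetochore gene SKA1 (0.29), MYBL2 (0.20), UBE2S (-0.28) and ANAPC7 (-0.23). The lower shares, here and in the S phase list, lie near that of all tested genes. DESeq2 called 1 of the 126 higher and 1 lower, and 0 of the kinetochore list, where edgeR called 5 higher (10 at an unadjusted p under 0.05).

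Cells with guides were also compared with cells without plasmid, a comparison that shares its libraries with those above. Here 26 genes were lower and 10 higher, against 25.9% and 26.7% of all tested genes, and the median was -0.17. In 20 genes the libraries with guides lay below all those without plasmid and in 6 above, where all tested genes gave 19% and 19.9%. Without the term for the experiment 14 were lower and 4 higher. INCENP had -1.13 (SE 0.12, adjusted p = 6.75e-09), with a mean of 7.18 ± 0.216 CPM with guides, against 15.7 ± 1.66 without plasmid (SD, n = 2 experiments). NUSAP1 had 0.52 (SE 0.0387, adjusted p = 1.23e-11), with 309 ± 15.7 CPM and 216 ± 22.5 CPM in the same groups. CENPA (-0.55), UBE2C (-0.54), PLK1 (-0.51) and CCNB1 (-0.48) fell and SGO1 (0.50), SMC2 (0.38), CKAP2 (0.33) and PTTG1 (0.32) rose.

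A few genes were called in one of the comparisons with no plasmid and not in the other. CENPE had -0.30 (adjusted p = 0.000441) with guides and -0.12 (adjusted p = 0.111) with dCas9-VP160, yet the difference between these groups was -0.18 (adjusted p = 0.118). MKI67 had -0.0785 (adjusted p = 0.071) with guides, and BUB3 had -0.0396 (adjusted p = 0.343). TTK rose by 0.11 with guides (adjusted p = 0.0472), a call lost under 17 of 24 refits. For both comparisons with guides, 0 of the 48 responses differed between experiments in the interaction test, against 0% of 17218 genes in each (edgeR; 3 genes against dCas9-VP160 and 2 against no plasmid at an unadjusted p under 0.05).

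The batches of cells differed as well. In experiment 2, the second batch of cells, 32 of 48 genes were higher than in experiment 1 and 2 lower, where 12% of all tested genes were higher and 12.2% lower. The median log2 fold change was 0.15 over the 48 and -0.000186 over all tested genes. All 7 spindle genes and all 4 cytokinesis genes were higher, as were 5 of 6 kinetochore genes, 5 of 6 chromosome structure genes and 6 of 10 entry genes, but 1 of 7 genes of the inner centromere and passenger complex. DESeq2 called 23 genes higher and 1 lower, among them all 7 spindle genes and 5 chromosome structure genes but 2 cytokinesis, 3 kinetochore and 3 entry genes. DLGAP5 (0.41), HMMR (0.35), NUF2 (0.33) and CKAP2L (0.33) differed most. DLGAP5 had 104 to 113 CPM in the transfected libraries of experiment 2, against 73.8 to 89.0 CPM in those of experiment 1, and 121 and 114 CPM without plasmid in experiment 2, above both such libraries of experiment 1. FOXM1 (-0.20, SE 0.0390, adjusted p = 0.0003) and PLK1 (-0.12, SE 0.0355, adjusted p = 0.0113) were lower in experiment 2. The replicate 2 libraries alone gave 20 genes higher and 2 lower, and leaving out replicate 2 of experiment 2 without plasmid left 1 gene lower.

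**Figure D5:**
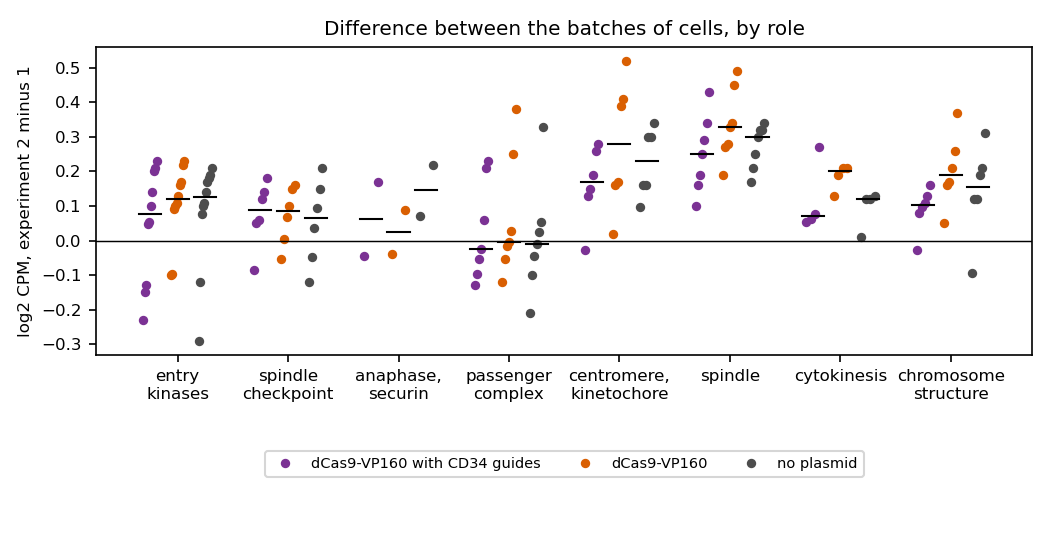
Log2 difference of experiment 2 minus experiment 1 (y axis) for the 48 genes, by role (x axis), in cells with guides (purple), with dCas9-VP160 (orange) and without plasmid (grey); points are genes and black lines medians. Spindle genes lie above 0 in all 3 groups, from 0.10 to 0.49, and the passenger complex genes scatter around 0.

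The difference between batches of cells was present in each group. It was positive in 37 of 48 genes with guides, 40 with dCas9-VP160 and 39 without plasmid, with medians of 0.11, 0.16 and 0.13, where all tested genes had medians of -0.00349, -0.00206 and 0.00648. The order of groups across batches depended on the gene. CCNB1 had 197 and 192 CPM in the libraries of experiment 2 with guides and 204 and 203 CPM with dCas9-VP160, each below the 240 and 244 CPM of experiment 1 without plasmid. TOP2A likewise had 721 and 702 CPM with dCas9-VP160 in experiment 2, against 790 and 859 CPM without plasmid in experiment 1. In NUSAP1 the groups came close across batches, with 241 and 259 CPM with dCas9-VP160 in experiment 1 and 238 and 228 CPM without plasmid in experiment 2. DLGAP5 had 111 and 104 CPM with dCas9-VP160 in experiment 2, above both libraries of experiment 1 without plasmid. CENPF reached 143 CPM with dCas9-VP160 in experiment 2, against 139 CPM in both libraries of experiment 1 without plasmid. Over both experiments the dCas9-VP160 libraries overlapped those without plasmid in 22 of 48 genes. The labels say no more of the experiments than that the cells were different batches.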

How the data were processed

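RNA-seq was done on 12 libraries of the 293T line, from 1 ng of RNA each. The authors deposited whole-number read counts per gene. Per the submitters' processing notes, Trim Galore 0.3.7, STAR 2.6.0c, Picard 2.17.1, DESeq2 1.16.1 and the build hg38 were used. Neither the counting program nor the annotation release is stated in the labels. The SMART-Seq HT and Nextera XT kits, named in the labels, keep no strand information, although the design text names a directional assay. The strand setting of the counts is not given, so overlapping genes on opposite strands may not have been told apart. Library sizes and tests leave out 92 spike-in rows. The table of the authors' own comparisons was not used here.

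Technical replicates were summed to 6 libraries, n = 2 experiments per group, after a check that no pair was a duplicate. Chi-square per degree of freedom was 1.84 to 4.37 over the pairs, so replicates differed by more than counting error. It was highest with guides, at 3.07 in experiment 2 and 4.37 in experiment 1. The labels mark an experiment as a shared batch of cells, so it entered the model as a block; the differences between experiments correlated between groups at 0.616 to 0.631 over 12875 genes. The test was the robust quasi-likelihood test of edgeR 4.0.16 under R 4.3.3, after filterByExpr and TMM scaling, with 2 residual degrees of freedom and a median prior of 24, and adjusted by Benjamini-Hochberg over 19662 genes. P-values therefore rest on 2 batches of 1 cell line, with spread borrowed across genes. Approximate SEs are the size of the log2 fold change over the root of F. A prior count of 2 was used for log2 differences inside an experiment. Levels are TMM-normalised CPM, divided by GENCODE v29 exon length where genes are compared. A gene at 0 counts could have reached 0.251 to 0.444 CPM (3 counts, counting error only).

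The fit was tested on simulated counts that gave all genes the same spread and no difference between experiments. Such counts cannot show how the fit behaves on these data. Members, lists and tests were chosen with earlier results of these data known. Values in every library are given for the 10 called genes with the largest change against no plasmid, up to 6 with the largest change between transfected groups (5 were called), and CCNB1, CDK1, PLK1, FOXM1, MKI67 and TOP2A; RCC2 was added after its values were seen. Of other lists at most the 3 called genes with the largest change in each direction are named; 1 such gene is not reported here. Alternatives were no block, 12 unsummed libraries, DESeq2 1.42.0, RLE or no scaling factors, no mitochondrially encoded genes, no filter, subsets of libraries and a fold threshold.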

Additional observations from a re-analysis of the deposited data

Results flagged for a closer look

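Among 54 groups of 4 libraries, for 18 of the genes given in every library, 2 had a library that stood apart by Dixon's test. RCC2, which was added after its values were seen, was not checked. Chance gives about 5% for independent libraries. These were technical replicates from 2 batches of cells, so that rate need not hold here. Both libraries that stood apart were replicate 1 of experiment 1 with guides. NUSAP1 had 278 normalised CPM there, against 316 to 323 in the other 3 libraries with guides. SMC2 had 228 normalised CPM, against 280 to 290. In 11 of the 18 genes that library had the lowest CPM of its group. The share over all tested genes was not looked at. With guides 37 of the 48 genes were higher in experiment 2 than in experiment 1, a difference between experiments and not between replicates. Replicate 2 of experiment 1 with guides had 316 normalised CPM for NUSAP1 and 280 for SMC2. That pair of replicates had the highest chi-square per degree of freedom, 4.37. Why replicate 1 was lower was not tested. Without that library, 3 of the 48 genes were higher and 1 lower with guides than with dCas9-VP160.

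For RCC2 the log2 fold change of dCas9-VP160 against no plasmid was higher by 0.51 in experiment 2 than in experiment 1. The adjusted p was 0.0367 for the interaction in edgeR, on 12 libraries. That test uses the spread of technical replicates and not of batches of cells. In experiment 2 RCC2 had 168 and 175 CPM with dCas9-VP160 and 194 and 202 CPM without plasmid, and in experiment 1 it had 145 and 113 against 212 and 215. The 2 dCas9-VP160 replicates of experiment 1 thus differed from each other. An overlapping gene, AC004824.1, had 67 to 199 counts and a log2 fold change of -0.46 against no plasmid (adjusted p = 0.000562).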

How the results depend on the processing

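The counts of 27 lower and 9 higher genes with dCas9-VP160 against no plasmid stayed within 1.5 times under all refits but the following. Without the block for the experiment there were 2 higher; with a fold threshold (0.25 on the log2 scale, either way) there were 5. Leaving out 1 library at a time gave 8 to 10 higher and 27 to 29 lower. With guides against no plasmid (10 higher, 26 lower), no block gave 4 and 14, and leaving out 1 library 9 to 10 and 23 to 27. With guides against dCas9-VP160 (4 higher, 1 lower), no block gave 0 and 0, as did experiment 2 alone and the fold threshold. Replicate 1 alone gave 1 higher, experiment 1 alone 2 and 0, replicate 2 alone 0 lower, library size alone 3 lower and DESeq2 1 and 0. Leaving out 1 library gave 1 to 5 and 0 to 2. For experiment 2 against experiment 1 (32 higher, 2 lower), replicate 2 alone gave 20 higher, replicate 1 alone and DESeq2 1 lower each, the fold threshold 9 and 0, and leaving out 1 library 25 to 33 and 1 to 3.

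No call of the 48 genes turned its direction under 24 refits, or 21 for experiment 2 against experiment 1. Against no plasmid, 20 of 36 calls with dCas9-VP160 and 17 of 36 with guides held under every refit, and 10 and 12 were lost under 1. Between the transfected groups 0 of 5 held under every refit (edgeR; NUSAP1 was lost under 2, CDC20 under 7, TTK under 8, CKAP2 under 9 and SMC2 under 14). DESeq2 called NUSAP1 alone. Between experiments 18 of 34 calls held under every refit, and AURKA was lost under 13. Against no plasmid, DESeq2 took the lower calls with dCas9-VP160 to 6 of 12 mitotic kinesins, 2 of 17 mitotic regulators and 1 of 24 S phase genes. Fits on 1 experiment or on 12 libraries use the spread of technical replicates. The causes were not tested.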
